A study of Mus musculus with 8 samples.

Results

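Lysosome and autophagy genes were examined in a fibroblastic reticular cell (FRC) line, the stromal cells that build the reticular scaffold of lymph nodes. The list holds 53 genes, chosen by symbol, of 55367 genes in the count table, and 51 of them had at least 10 counts in at least 3 libraries. These 51 were tested along with the rest of the 12137 genes that passed the same filter. The line was derived from lymph nodes of p53 ER/ER mice on a C57BL/6 background, so every condition shares this genotype. Poly(A) RNA was sequenced in 8 libraries, 2 for each of 4 conditions, after 4 days of treatment in RPMI with a low level of serum. The conditions were vehicle (water), lactic acid at 15 mmol/L (LA), medium conditioned by FRCs (CCM) and medium conditioned by B16.F10 mouse melanoma cells (TCM). Because 1 cell line was used, the libraries of a condition are cultures of the same cells and not separate animals.

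Lysosomes are acidic organelles in which peptidases, glycosidases and lipases break down material that arrives by endocytosis or by autophagy. A proton pump, the V-ATPase, acidifies the lumen, and heavily glycosylated proteins such as LAMP1 line the membrane. In autophagy, the ULK complex starts a membrane that a phosphoinositide kinase complex, the ATG12-ATG5 conjugation system and ATG8 family proteins extend around cargo, and the closed vesicle fuses with the lysosome. The transcription factors TFEB and TFE3 bind a short promoter element, the CLEAR element, in front of many of these genes. Most of the enzymes listed are made by nearly all cell types.

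Total counts per library lay between 8232889 and 14107964, so that 3 counts, taken as the floor, equal 0.212 to 0.355 CPM, the count scaled to the size of the library. Scaling factors (TMM, which set the typical gene to no change) were 0.938 and 0.939 in the TCM libraries and 1.01 to 1.04 in the others. The TCM replicates stood further apart than those of the other conditions. Their counts differed by 20.1 times the sampling variance per degree of freedom, against 3.28 to 7.33 elsewhere. The line carried 8 of 12 FRC markers past the filter, with a summed level of 13500 to 18100 CPM that is nearly all Col1a1, while Ccl21a was at 0 and Ccl19, Lepr and Thy1 stayed at or below 1.75 CPM. Leukocyte markers, which matter here because macrophages are rich in lysosomal enzymes, passed in 3 of 10 cases (Csf1r, Lyz2 and Cd14). Their sum ranged from 15.5 to 24.9 CPM with TCM, 17.5 to 18.6 with CCM, 11 to 12.6 with LA and 16.1 to 19.8 with vehicle, and Ptprc, Adgre1, Itgam, Fcgr1 and Cd3e had no count in any library. Endothelial markers passed in 2 of 8 cases (Tek and Emcn, 39.8 to 68.4 CPM in sum). Most of that sum was Emcn (35.1 to 62.4 CPM). Pecam1, Cdh5, Kdr, Lyve1 and Flt4 stayed at or below 1.31 CPM, and Prox1 was at 0. Melanocyte markers passed in 1 of 7 (Pmel, 0.956 to 1.90 CPM in sum, with Tyr at 0), and epithelial markers in 1 of 6 (0.632 to 4.63 CPM).

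Most of the machinery was expressed in these cells. Per kilobase of exon, the highest mean level over the 8 libraries was that of Psap, the precursor of the saposins that present lipids to lysosomal enzymes, at 368 CPM per kilobase. Lamp1 followed at 257, the ATG8 family member Gabarap at 177, the aspartic peptidase Ctsd at 150 and the cargo receptor Sqstm1 at 129. The lowest of the tested members were Tfeb at 2.78, the conjugation scaffold Atg16l1 at 2.48 and the peptidase Ctsf at 1.42 CPM per kilobase. Ctsk and Ctss, peptidases best known from osteoclasts and antigen-presenting cells, did not pass the filter. Ctsk had 2 to 4 counts in each library, and Ctss had no count in 7 libraries and 1 count in vehicle replicate 2. No comparison was made for these 2 genes.

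To ask what TCM did beyond medium conditioned by the FRCs themselves, TCM was compared with CCM. Calls needed both an adjusted P below 0.05 and a change of more than 0.39 on the log2 scale in either direction. With TCM, 5 members rose (Rb1cc1, Ctsl, Ctsd, Naglu and Neu1) and 3 fell (Ctsc, Ctsh and Tfe3), and 43 of 51 were not called. In such bulk samples, a change in the cells present and a change in RNA per cell cannot be told apart. The calls were 8 of 51 members in a comparison that called 19.1% of all genes, 8.83% as higher and 10.2% as lower, so the members were not called more often than genes at large. The median log2 FC of the members was 0.17, with 37 of 51 above 0, against 0.00 and 6074 of 12137 over all genes tested. Both TCM libraries lay above both CCM libraries for 27 of 51 members (27.8% of all genes) and below them for 9 (30.5% of all genes). The members' median was 0.13 without CCM replicate 1 and 0.14 without CCM replicate 2. It was 0.09 without TCM replicate 1 and 0.18 without TCM replicate 2. The number of calls moved with the libraries too, among all genes as among the members. Without the scaling factors the median of all genes fell to -0.14, the members' median was 0.03, and 3 members were called higher and 4 lower. Over all genes that setting called 651 of 2692 genes as higher, where the scaled counts gave 1072 of 2314.

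**Figure D1:**
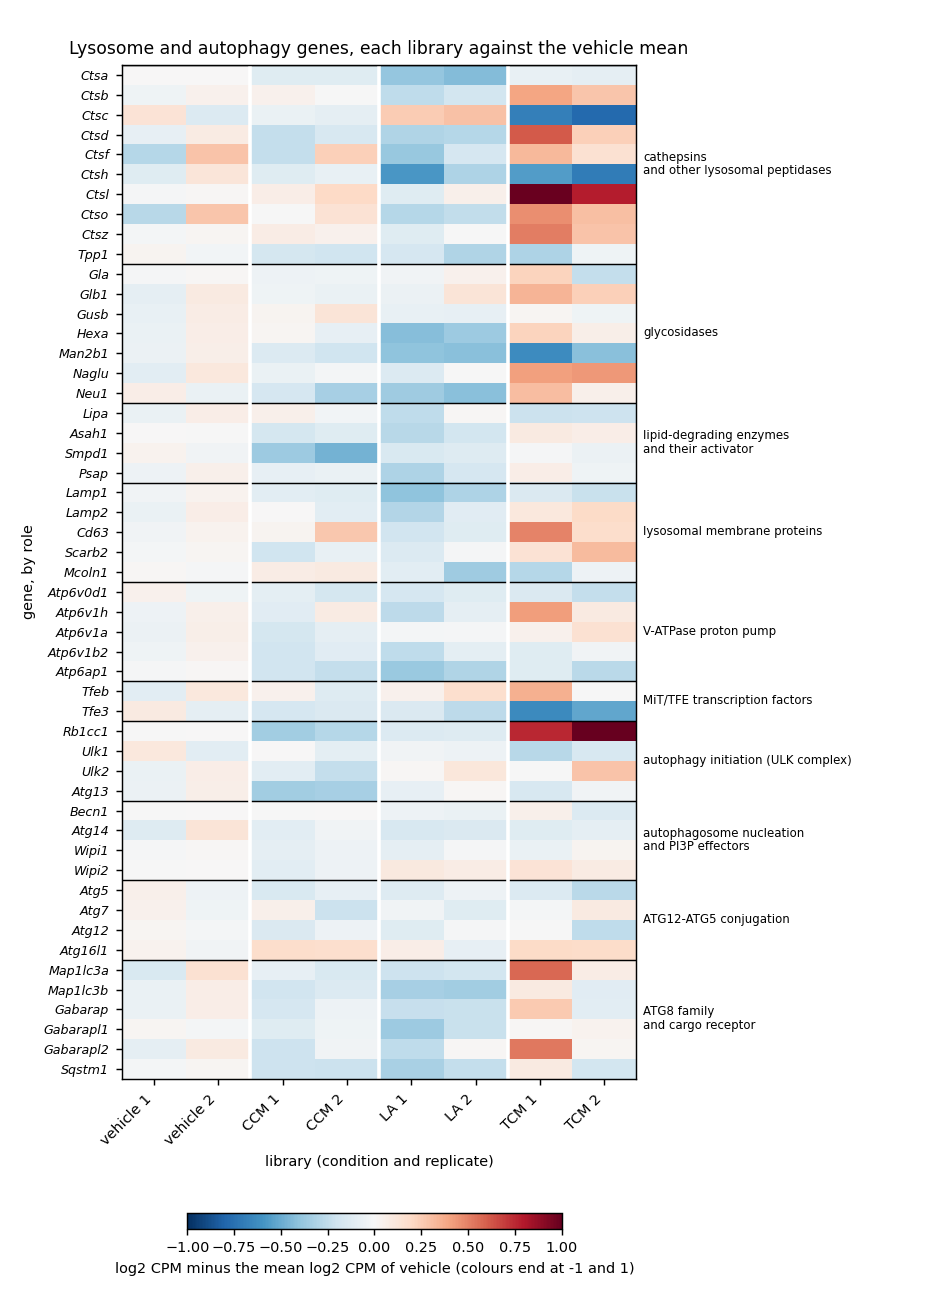
Each row is 1 of the 51 tested members, grouped by role, and each column 1 of the 8 libraries, with colour for log2 CPM minus the mean log2 CPM of the vehicle libraries (colours end at -1 and 1). The LA columns are blue in most rows, while the TCM columns mix red rows (Rb1cc1, Ctsl, Ctsd) with blue ones (Ctsc, Ctsh, Tfe3).

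The member with the largest change was Rb1cc1, the scaffold of the ULK complex (chr1:6206197-6276648, plus strand, GRCm38). It stood at 69.6 and 72.7 CPM with CCM, 149 and 182 with TCM, 88.1 and 88.8 with vehicle, and 80.6 and 81.1 with LA. Both TCM libraries were above all other libraries, and CCM was the lowest of the 4 conditions. With TCM over CCM the log2 FC was 1.22 ± 0.108 (SE; adjusted P = 3.6e-05), a 2.32-fold rise. The call was kept in 19 of 19 alternative settings. Rb1cc1 has 14690 bases of exon, shares exon sequence with 4732440D04Rik on the opposite strand, and was higher in TCM replicate 2 than in replicate 1 by 0.29 on the log2 scale. The rest of the complex was not called in any comparison. The kinase Ulk1 had a log2 FC of -0.17 with TCM, the related kinase Ulk2 had 0.32 (adjusted P = 0.0777), and the regulatory subunit Atg13 had 0.24.

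Among the peptidases, 2 endopeptidases rose and 2 exopeptidases fell. Ctsl, a cysteine endopeptidase (chr13:64359337-64370890, minus strand), measured 317 and 347 CPM with CCM and 602 and 522 with TCM. In the other libraries it measured 301 and 305 (vehicle) and 279 and 314 (LA), all below both TCM libraries. Its log2 FC with TCM was 0.76 ± 0.109 (SE; adjusted P = 0.000639), and it was called in 18 of 19 alternatives, all but the one with a log2 FC beyond 1. Ctsd, the main aspartic endopeptidase (chr7:142375911-142388038, minus strand), measured 295 and 311 CPM with CCM and 533 and 410 with TCM, against 328 and 369 with vehicle and 283 and 285 with LA. The TCM libraries were the 2 highest but lay far apart from each other. The log2 FC was 0.64 ± 0.125 (adjusted P = 0.00449), and the adjusted P value was 0.0566 without CCM replicate 1. Ctsl and Ctsd each share exon sequence with an annotated transcript on their own strand (Gm49230 and Gm49369), so reads of those stretches cannot be assigned with certainty.

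Ctsc, a dipeptidyl peptidase that activates the serine proteases of immune cell granules (chr7:88278085-88310888, plus strand), measured 53.0 and 51.9 CPM with CCM and 34.4 and 32.3 with TCM. Vehicle stood at 60.8 and 50.4 and LA at 66.1 and 67.9, so the TCM libraries were the lowest and the LA libraries the highest of the 8. The log2 FC with TCM was -0.65 ± 0.115 (adjusted P = 0.00236), kept in 18 of 19 alternatives. Ctsh, an aminopeptidase (chr9:90054152-90076089, plus strand), measured 87.2 and 89.7 CPM with CCM, 64.3 and 58.3 with TCM, 87.0 and 103 with vehicle, and 63.4 and 76.3 with LA. The TCM and LA libraries overlapped each other and lay below all control libraries. Its log2 FC with TCM was -0.53 ± 0.122 (adjusted P = 0.0106), and the call was lost without either CCM library. Of the other peptidases, Ctsb (0.32) and Ctsz (0.35) had adjusted P values of 0.0376 and 0.0296 with a log2 FC inside the threshold. Ctsa, Ctsf, Ctso and the tripeptidyl peptidase Tpp1 had log2 FCs of 0.01 to 0.31 and did not pass.

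**Figure D2:**
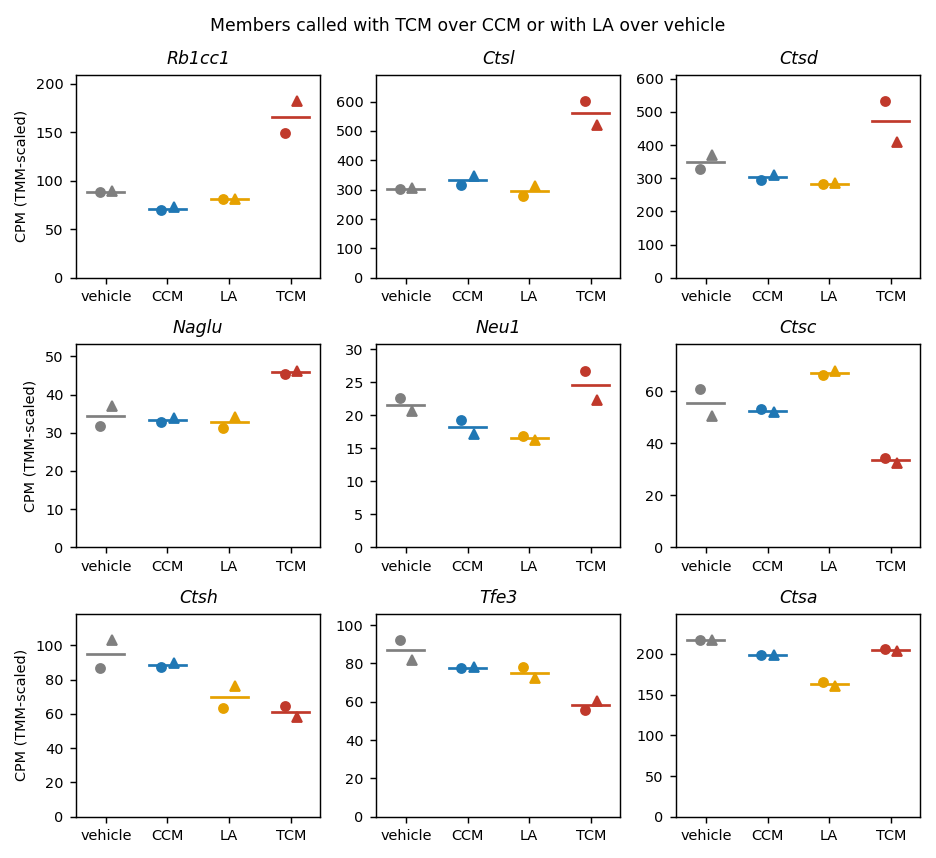
CPM (TMM-scaled) of the 9 members called with TCM over CCM or with LA over vehicle, on axes that start at 0. Circles are replicate 1, triangles replicate 2 and lines the mean of each condition. Rb1cc1 and Ctsl stand highest with TCM, Ctsc is lowest with TCM and highest with LA, and Ctsa is lowest with LA (166 and 161 CPM).

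Of the 7 glycosidases, 2 rose with TCM. Naglu, which removes N-acetylglucosamine from heparan sulfate (chr11:101070012-101077672, plus strand), measured 32.8 and 33.8 CPM with CCM and 45.4 and 46.3 with TCM, against 31.8 and 36.9 with vehicle and 31.2 and 34.2 with LA. The TCM libraries were the highest and close to each other. Its log2 FC was 0.46 ± 0.112 (adjusted P = 0.0134), and the call was lost without either CCM library and without scaling factors. Neu1, the lysosomal sialidase (chr17:34931253-34935953, plus strand), measured 19.3 and 17.2 CPM with CCM, 26.8 and 22.4 with TCM, 22.6 and 20.7 with vehicle, and 16.9 and 16.2 with LA. TCM replicate 2 was thus level with vehicle replicate 1. The log2 FC of 0.43 ± 0.134 (adjusted P = 0.0427) was called in 8 of 19 alternatives and not in DESeq2. The beta-galactosidase Glb1 (0.34, adjusted P = 0.0443) and the alpha-mannosidase Man2b1 (-0.35, adjusted P = 0.0323) were inside the fold threshold, and Gla, Gusb and Hexa had log2 FCs of -0.09 to 0.18.

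The enzymes and activator of lipid breakdown were not called with TCM under the main settings. Smpd1, acid sphingomyelinase, was closest, at 53.1 and 49.2 CPM with CCM and 67.9 and 65.6 with TCM (log2 FC 0.38, adjusted P = 0.0164). Smpd1 was called higher with DESeq2 and with DESeq2 size factors. Its vehicle libraries stood at 70.0 and 66.8 and its LA libraries at 61.5 and 62.7, so CCM was the low condition. The acid ceramidase Asah1 (0.23), Psap (0.10) and the acid lipase Lipa (-0.22) had adjusted P values of 0.0994 to 0.558.

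In the lysosomal membrane, no member was called with TCM. Scarb2, the carrier of glucocerebrosidase, had the smallest adjusted P value, with 50.1 and 54.7 CPM with CCM, 63.8 and 71.8 with TCM, 56.7 and 58.5 with vehicle, and 52.4 and 57.1 with LA. TCM was highest and its libraries did not overlap those of other conditions (log2 FC 0.37 ± 0.107, adjusted P = 0.029). Lamp1 measured 711 and 705 CPM with CCM and 691 and 656 with TCM, a log2 FC of -0.07 ± 0.0965. Lamp2 (0.20), the tetraspanin Cd63 (0.19) and the calcium channel Mcoln1 (-0.24) did not pass either. The 5 pump subunits had log2 FCs between -0.05 and 0.28 with TCM, and none was called.

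The transcription factor genes went in different directions. Tfe3 (chrX:7762560-7775202, plus strand) measured 77.4 and 78.3 CPM with CCM and 55.9 and 60.6 with TCM, with 92.2 and 81.6 with vehicle and 78.3 and 72.2 with LA. The TCM libraries were the lowest of the 8. Its log2 FC with TCM was -0.42 ± 0.104 (adjusted P = 0.0149), and the call was lost without either CCM library and without TCM replicate 1. Tfeb, at a lower mean level per kilobase (2.78 against 8.05 CPM for Tfe3), measured 15.5 and 13.8 CPM with CCM, 19.3 and 15.0 with TCM, 14.0 and 16.2 with vehicle, and 15.5 and 16.9 with LA. The conditions overlapped, and its log2 FC was 0.22 ± 0.159 (adjusted P = 0.353). The activity of both factors is set largely by their place in the cell, which RNA does not measure.

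Downstream of the ULK complex, TCM left the listed autophagy members without a call under the main settings. The nucleation and phosphoinositide effector genes Becn1, Atg14, Wipi1 and Wipi2 had log2 FCs of -0.05 to 0.19. Wipi2 came closest, at 69.5 and 71.9 CPM with CCM and 81.9 and 78.9 with TCM (adjusted P = 0.171), and at 74.5 and 74.7 with vehicle and 79.9 and 78.5 with LA. In the conjugation system Atg5, Atg7, Atg12 and Atg16l1 had log2 FCs of -0.08 to 0.11, and Atg7, the activating enzyme, measured 24.5 and 20.4 CPM with CCM, 23.4 and 25.2 with TCM, 24.4 and 23.0 with vehicle, and 23.1 and 21.8 with LA. All 6 members of the ATG8 and cargo receptor group were above 0 (0.10 to 0.46), or 5 of 6 without scaling factors. None was called under the main settings. Map1lc3a had the smallest adjusted P value (0.0545), with 61.9 and 59.0 CPM with CCM and 97.4 and 69.1 with TCM. It was called higher with DESeq2, with DESeq2 size factors, with no filter on low counts and with the crossed block. With no filter on low counts Gabarapl2 was called as well. Map1lc3b, whose lipidated protein marks autophagosomes, measured 88.9 and 92.0 CPM with CCM and 108 and 93.4 with TCM (log2 FC 0.15 ± 0.101). Sqstm1, the cargo receptor that autophagy itself degrades, measured 411 and 409 CPM with CCM and 504 and 418 with TCM (0.17 ± 0.108). In Map1lc3a, Map1lc3b and Sqstm1, replicate 1 was the higher TCM library.

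**Figure D3:**
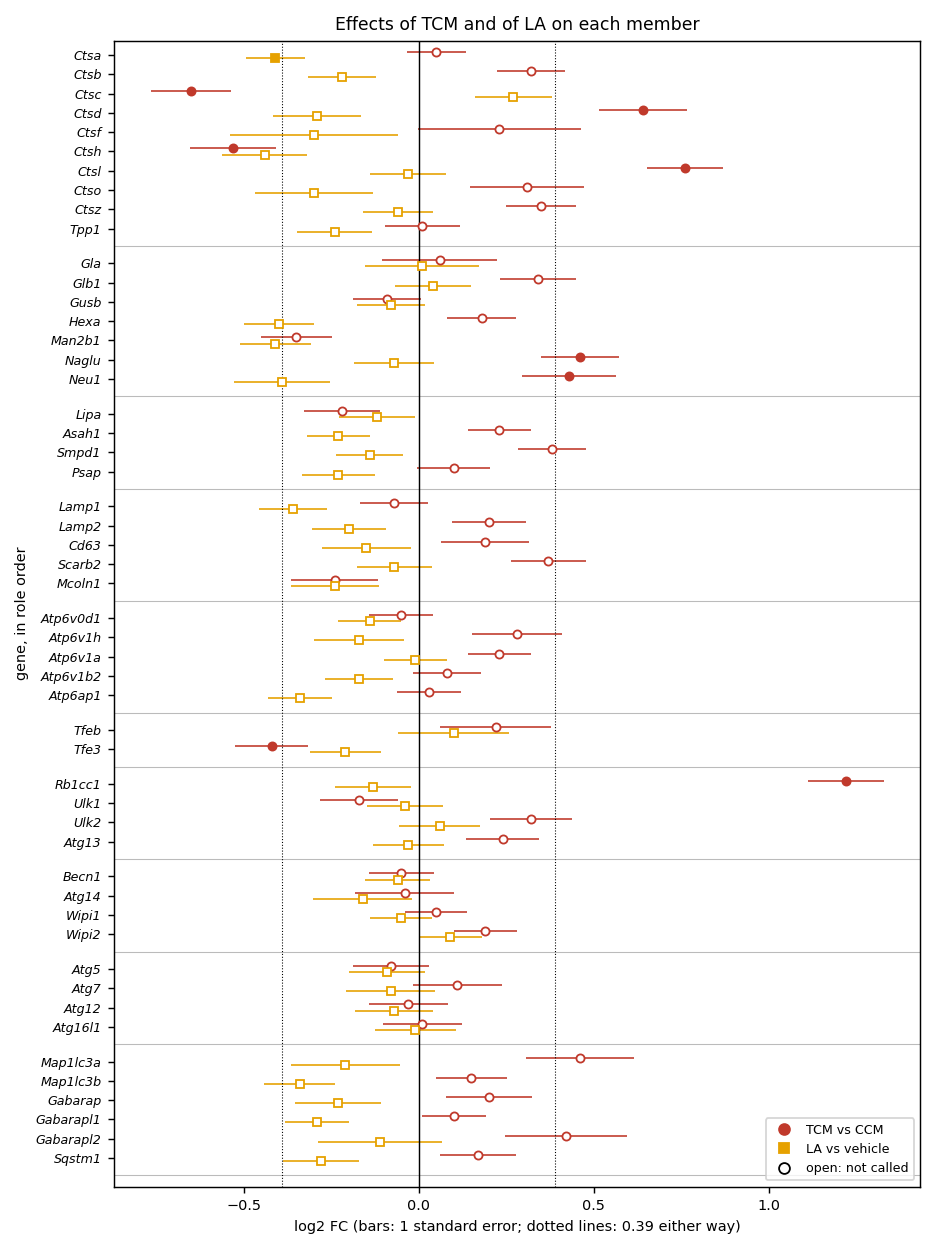
Log2 FC of each tested member for TCM against CCM (red circles) and LA against vehicle (yellow squares), with bars of 1 standard error, in role order; filled symbols were called and dotted lines stand at 0.39 either way. Rb1cc1 is farthest to the right with TCM (1.22), and the LA symbols lie left of 0 for 45 of 51 members.

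The spread between the TCM libraries followed transcript length. Across 11964 genes, the log2 ratio of TCM replicate 2 to replicate 1 correlated with log2 exon length at r = 0.503, against -0.224 to 0.142 in the other conditions. This is a description across genes that share the same libraries. The median ratio was -0.28 in the shortest of 5 equal length classes (up to 2464 bases) and 0.23 in the longest (from 7688 bases). Of the 9 members in the shortest class, 8 were higher in replicate 1, and of the 8 in the longest class, 4 were higher in replicate 2. Short members with wide TCM replicates were Ctsd (2351 bases), Map1lc3a (1181 bases) and Gabarapl2 (2325 bases). With exon length as a correction, the same 8 members were called with TCM over CCM. With TCM over vehicle, the correction left 6 of 9 called members and lost Ctsd, Ctsz and Naglu. Over all genes it called 2368 in that comparison, against 2121 without it.

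**Figure D4:**
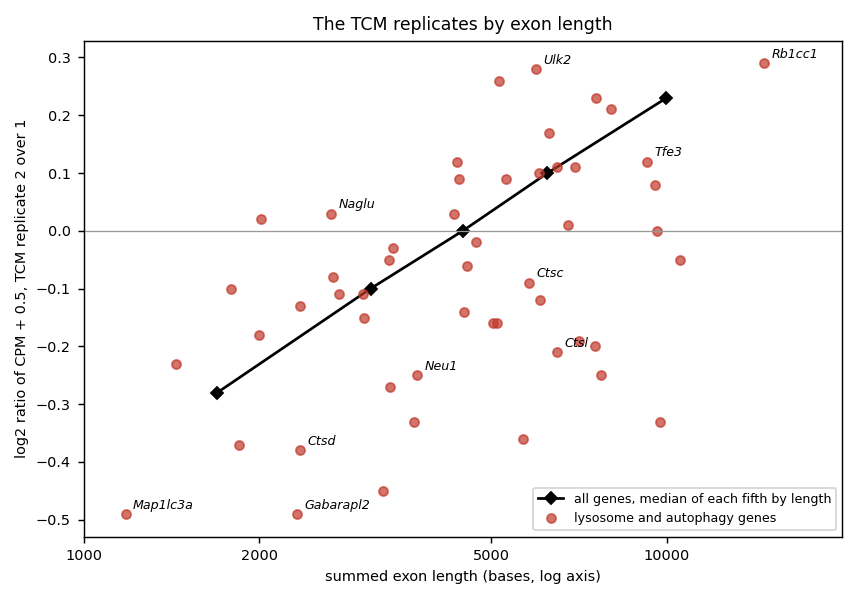
Log2 ratio of TCM replicate 2 to replicate 1 (CPM plus 0.5) against summed exon length on a log axis, for the tested members (red) and for the medians of all genes in 5 length classes (black). The black line climbs from -0.28 to 0.23, with Ctsd and Map1lc3a low at the short end and Rb1cc1 high at the long end.

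LA was compared with vehicle to ask what the acid alone did. Here 1 of 51 members was called, Ctsa, which fell, while 45 of 51 had a log2 FC below 0 against 50.1% of all genes. The median of the members was -0.15 and that of all genes 0.00. The comparison called 2.55% of all genes, 1.31% as higher and 1.24% as lower, so a single call among 51 is near the background. Both LA libraries lay below both vehicle libraries for 30 of 51 members (24.2% of all genes) and above them for 2 (23.7% of all genes). At an unadjusted P value under 0.05 there were 16 members, where all genes gave 1731 of 12137. The call, the median and the number below 0 were the same without scaling factors. With CCM over the same vehicle libraries, 41 of 51 members were below 0 as well, against 49.1% of all genes. The summed leukocyte markers were also lower with LA than with vehicle (11 to 12.6 against 16.1 to 19.8 CPM), with Ptprc, Adgre1 and Itgam at 0 throughout; their part in the result was not tested.

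Ctsa, a serine carboxypeptidase that also shields beta-galactosidase and sialidase in the lysosome (chr2:164832873-164841032, plus strand), measured 217 and 217 CPM with vehicle and 166 and 161 with LA. CCM stood at 199 in both libraries and TCM at 206 and 204, so the LA libraries were the lowest of the 8. The log2 FC with LA was -0.41 ± 0.0843 (adjusted P = 0.0311), a 1.32-fold fall. The call was lost when any 1 vehicle, CCM or LA library was left out, with a log2 FC of -0.43 to -0.38. Calls among all genes became fewer in these settings as well. Leaving out either TCM library kept Ctsa and added Ctsh, Hexa and Man2b1, while calls among all genes also became more. Ctsa overlaps exons of Neurl2 and Pltp on the opposite strand, and Ctsb, Ctsz, Hexa, Lamp1, Map1lc3b and Sqstm1 likewise overlap opposite-strand genes, which leaves their counts uncertain where strand was not used.

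Several members with LA came near the threshold. Ctsh had a log2 FC of -0.44 (adjusted P = 0.0911), Man2b1 -0.41 (0.0628) and Hexa -0.40 (0.0659). Hexa, a subunit of beta-hexosaminidase, stood at 139 and 152 CPM with vehicle and 108 and 113 with LA, with no overlap. Lamp1 stood at 749 and 783 CPM with vehicle and 578 and 619 with LA (-0.36 ± 0.0966, adjusted P = 0.0877). Atp6ap1, an accessory subunit of the pump and the member of that group with the smallest adjusted P value, stood at 220 and 224 CPM with vehicle and 172 and 180 with LA (-0.34 ± 0.0911, adjusted P = 0.0872). Its CCM libraries were at 194 and 188 and its TCM libraries at 204 and 184, so vehicle was the highest condition.

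By role, the median log2 FC under LA was -0.27 for the peptidases (9 of 10 below 0), -0.25 for the ATG8 group (6 of 6 below 0) and -0.20 for the membrane proteins (5 of 5 below 0). With CCM over the same vehicle libraries, these medians were -0.06 (6 of 10 below 0), -0.13 (6 of 6) and -0.05 (3 of 5). In the ATG8 group, Map1lc3b stood at 96.8 and 106 CPM with vehicle and 80.6 and 79.6 with LA, which did not overlap (-0.34 ± 0.102, adjusted P = 0.117). Sqstm1 stood at 468 and 479 with vehicle and 378 and 401 with LA (-0.28 ± 0.108, adjusted P = 0.249). The ULK, nucleation and conjugation genes had medians of -0.04, -0.05 and -0.07. Rb1cc1, the strongest responder to TCM, had a log2 FC of -0.13 ± 0.108 with LA. Ctsc was the member farthest above 0 with LA, at 0.27 ± 0.11 (adjusted P = 0.282). Tfeb had 0.10 and Tfe3 -0.21, neither of them called.

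The difference between the effects was tested as an interaction, the TCM effect over CCM minus the LA effect over vehicle. It was called for 10 of 51 members, 9 with a more positive effect of TCM and 1 with a more negative one. All genes were called in 10.4%, 4.45% as higher and 6.0% as lower. The members' median was 0.31 with 44 of 51 above 0, against 0.01 and 50.5% over all genes. Without scaling factors the median was 0.16 and 5 members were called, 4 higher and 1 lower, while the median of all genes fell to -0.139. The members' median was 0.26 to 0.38 without any 1 vehicle, CCM or LA library. It was 0.28 without TCM replicate 1 and 0.35 without TCM replicate 2. Calls became fewer without a vehicle, CCM or LA library and more without a TCM library, among the members and among all genes.

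Rb1cc1 had the largest difference (1.35 ± 0.152, adjusted P = 0.000251), kept in 18 of 18 alternatives. Ctsc was the member with the more negative effect of TCM (-0.93 ± 0.16, adjusted P = 0.00358). Its levels fell with TCM over CCM, and its 2 LA libraries stood above both vehicle libraries. Ctsd differed by 0.93 (adjusted P = 0.00645) and Ctsl by 0.79 (adjusted P = 0.00749), each called in at least 16 of 18 alternatives. Neu1 differed by 0.82 (adjusted P = 0.0197).

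The other 5 were called here but not with TCM over CCM. Hexa differed by 0.58 (adjusted P = 0.0233), with 147 and 137 CPM with CCM and 170 and 151 with TCM beside its lower LA values. Ctsb, a cysteine peptidase, differed by 0.54 (adjusted P = 0.0289). It measured 487 and 515 CPM with vehicle, 420 and 440 with LA, 515 and 500 with CCM, and 659 and 607 with TCM. Smpd1 (0.52), Asah1 (0.46) and Ctsa (0.45) had adjusted P values of 0.0328 to 0.0445. Asah1 stood at 360 and 358 CPM with vehicle, 297 and 316 with LA, 318 and 330 with CCM, and 383 and 376 with TCM. These 5 were called in 8 to 10 of 18 alternatives. Map1lc3b differed by 0.50 with an adjusted P value that rounds to 0.05, and it was not called. For Ctsh, which was lower with TCM and low with LA, the difference was -0.09 ± 0.171.

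The control media were compared with each other, since CCM carries whatever FRCs release. With edgeR no member was called in CCM over vehicle, where 1.3% of all genes were; DESeq2 also called 0, and 4 members had an unadjusted P value under 0.05. Below 0 were 41 of 51 members, against 49.1% of all genes, and the members' median was -0.08. Smpd1 was lowest (-0.42 ± 0.0964, adjusted P = 0.0611), and Atg13 (-0.34) and Rb1cc1 (-0.31) followed. For Smpd1 the CCM libraries were below those of every other condition.

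TCM against vehicle uses TCM libraries already compared with CCM and vehicle libraries already compared with LA, so its values are given only beside those comparisons. It called 9 of 51 members, 5 higher and 4 lower, where 17.5% of all genes were called, 8.58% higher and 8.9% lower. The median of the members was 0.03. The higher members were Rb1cc1 (0.90), Ctsl (0.89), Ctsd (0.44), Ctsz (0.41) and Naglu (0.41), and the lower were Ctsc (-0.74), Ctsh (-0.63), Tfe3 (-0.58) and Man2b1 (-0.52). The calls of Ctsd, Ctsz and Naglu were lost in 11, 7 and 8 of 19 alternatives, and the log2 FC of Ctsd was 0.24 without TCM replicate 1. Neu1, at 0.43 over CCM, was at 0.19 over vehicle. Without TCM replicate 2 the members' median was 0.07, and calls became more among the members and among all genes. Without scaling factors 2 members were called higher and 4 lower, with a median of -0.09. Man2b1 measured 100 and 108 CPM with vehicle, 78.5 and 77.7 with LA, 94.3 and 90.4 with CCM, and 67.2 and 77.9 with TCM, which puts both LA and TCM below both controls.

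A wider set of 138 lysosome and autophagy genes outside the list was counted from the same fits, and 126 of them were tested. With TCM over CCM, 22 of the 126 were called (19.1% of all genes), 18 higher and 4 lower. With LA over vehicle 3 were called, all lower, which is near the 2.55% of all genes. Of the 27 genes of soluble lysosomal proteins in the set, most of them hydrolases, 10 were higher and 1 was lower with TCM. All genes gave 8.83% and 10.2%. The smallest adjusted P values were those of Bnip3, a mitophagy receptor and hypoxia target (log2 FC 1.66 ± 0.161, adjusted P = 5.84e-05), the asparaginyl endopeptidase Lgmn (0.74 ± 0.102, adjusted P = 0.000498) and the phospholipase Pla2g15 (0.65 ± 0.101, adjusted P = 0.00104). Lower with TCM were the pump subunit Atp6v1g2 (-1.85, from 4.46 ± 0.493 to 1.24 ± 0.258 CPM, mean ± SD, n = 2), the chloride exchanger Clcn7 (-0.58) and the mTOR-binding protein gene Deptor (-0.49). So was the dipeptidyl peptidase Dpp7 (-0.62, adjusted P = 0.00575), which was also lower with TCM than with vehicle (-0.54). With LA, Dpp7 (-0.78, adjusted P = 0.0122), Pla2g15 (-0.51, adjusted P = 0.0304) and the transporter Abca2 (-0.62, adjusted P = 0.0419) fell. Abca2 was also lower with CCM than with vehicle (-0.76, adjusted P = 0.0308). All 14 other pump subunits were below 0 with LA, and none of these was called. With CCM over the same vehicle libraries, 12 of the 14 were below 0. The difference of effects was called for 20 of 126, all 20 with the more positive effect under TCM (10.4% of all genes, 4.45% in that direction). Pla2g15 was among them at 1.16 ± 0.145 (adjusted P = 0.000475), with 56.5 ± 2.15 CPM in vehicle, 39.7 ± 1.29 in LA, 53.9 ± 0.367 in CCM and 84.6 ± 7.15 in TCM. Low CCM and LA levels also make this difference positive. Abca2 was called (0.84) with mean CPM of 54.6 in vehicle, 32.2 in CCM, 35.7 in LA and 37.7 in TCM. With TCM over vehicle, 11 of the 126 were called higher and 7 lower (8.58% and 8.9% of all genes), with a median of 0.06.

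The promoters of the members were searched for the CLEAR core, since the list holds known targets of TFEB and TFE3. RefSeq windows (GRCm38.p6) of 300 bases, 250 before and 50 after the start site, were at hand for 41 of the 51 tested members. The palindrome TCACGTGA, its 7-base part TCACGTG and the central E-box CACGTG were searched on both strands, and each longer motif contains the shorter ones. TCACGTG was in 11 of 41 member windows (26.8%), against 7.12% of 9385 tested genes with a window and 4.29% of all 27025 genes with one. TCACGTGA was in 6 member windows (14.6%, against 2.31% and 1.12%), and CACGTG in 14 (34.1%, against 11.9% and 8.09%). The 11 members were Ctsa, Ctsd, Gla, Glb1, Naglu, Lamp1, Mcoln1, Atp6v0d1, Atp6v1a, Atg14 and Atg7. A match is a description of letters and not a measured binding site. Stretches of 30 bases are shown for the members called with LA (Ctsa) or with TCM (Ctsd and Naglu) and for the not called Lamp1 and Mcoln1, 5′ to 3′ on the strand of the gene with the motif in capitals.
Ctsa: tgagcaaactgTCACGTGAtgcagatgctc
Ctsd: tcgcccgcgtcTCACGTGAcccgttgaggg
Naglu: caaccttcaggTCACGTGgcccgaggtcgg
Lamp1: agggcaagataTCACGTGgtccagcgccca
Mcoln1: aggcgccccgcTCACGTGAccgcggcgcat

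These stretches lie at chr2:164833749-164833778 (Ctsa, plus strand), chr7:142387908-142387937 (Ctsd, minus strand), chr11:101070009-101070038 (Naglu, plus strand), chr8:13159088-13159117 (Lamp1, plus strand) and chr8:3500462-3500491 (Mcoln1, plus strand). Ctsa, Ctsd, Lamp1 and Mcoln1 hold further copies of the 7-base motif in the same window. The median log2 FC with TCM over CCM was 0.06 in the 11 with it and 0.18 in the 30 without, and with LA over vehicle it was -0.14 and -0.15. No test was made of these differences. With TCM, the 11 with the motif included 2 calls, Ctsd and Naglu, both higher. The 30 without it included 4 calls, 2 in each direction. Neither share is above the 19.1% of all genes called.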

How the data were processed

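Libraries were directional poly(A) libraries of cultured FRCs, grouped by their labels. Per the labels and the study's methods, the authors aligned reads with STAR 2.7.0a to Ensembl GRCm38, counted them per gene with featureCounts (Subread 2.0.1) and deposited raw counts without normalization. A second deposited table holds 12137 genes, and 100% of its counts equal the raw ones. The strand setting is not given in the sources used here, so counts of overlapping genes are uncertain. Columns left unused numbered 0.

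The 12137 genes that reached 10 counts in 3 or more libraries were fitted with edgeR 4.0.16 in R 4.3.3, using TMM scaling, robust dispersions and the quasi-likelihood test, with 1 mean per condition and all 8 libraries. P values were adjusted over all 12137 genes (Benjamini-Hochberg). A call needed an adjusted P under 0.05 and a log2 FC beyond 0.39. The biological coefficient of variation was 0.0903. CPM are TMM-scaled, and SE is that of the log2 FC. With 2 libraries per condition, P values rest on 1 spread per gene between cultures of 1 line, pooled over all 8 libraries. The wider TCM spread (20.1 times the sampling variance, against 3.28 to 7.33 elsewhere) was thus shared by every comparison. The SE may be too small where TCM is compared and too large for LA over vehicle. Floors cover counting error only. Alternatives were DESeq2 1.42.0, its size factors, no scaling factors, other filters and fold thresholds, only the libraries compared, a replicate block, and leaving out each library; a crossed block and an exon length correction were added after seeing the data. The fit was tested on counts simulated with the same spread in every condition and no trend with exon length. That test cannot show how the fit handles the wider TCM replicates.

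The members and lists were chosen with earlier results of these data known. Named were all members called with TCM over CCM, LA over vehicle or in the difference of effects, the member of smallest adjusted P in each role without a call, and Tfeb, Tfe3, Lamp1, Map1lc3b and Sqstm1. Of the wider set, the 3 of smallest adjusted P called in each direction were named. Positions and exon lengths come from GENCODE M21 (GRCm38), matched by symbol, and promoter windows from RefSeq.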

Additional observations from a re-analysis of the deposited data

How the results depend on the processing

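No member named as called changed sign in any alternative run. With TCM over CCM, the 8 called members became 14 with no fold threshold and 1 with a log2 FC beyond 1, and ranged from 3 to 15 when 1 library was left out. The members' median of 0.17 was 0.03 without scaling factors and ranged from 0.09 to 0.18 without 1 library. With LA over vehicle, the 1 called member became 0 with a log2 FC beyond 1 and 4 with no filter on low counts. The count was 3 with only the libraries compared, 3 with the exon length correction and 4 with the crossed block. For the difference of effects, 10 became 1 with a log2 FC beyond 1, 5 without scaling factors and 16 with the crossed block, and ranged from 3 to 20 without 1 library. Its median of 0.31 was 0.16 without scaling factors and ranged from 0.26 to 0.38 without 1 library. With CCM over vehicle, 0 became 1 (Smpd1) with no filter on low counts and with only the libraries compared. Smpd1 was also called with the exon length correction and with the crossed block. The members' median ranged from -0.14 to -0.08 without 1 library. With TCM over vehicle, 9 became 0 with a log2 FC beyond 1 and 6 with the exon length correction. Its median of 0.03 was -0.09 without scaling factors and ranged from -0.02 to 0.07 without 1 library. When 1 library was left out, the number of calls moved in every comparison, among the members and among all genes. A stricter fold leaves fewer calls by construction; for the other shifts the cause was not tested.

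Same-numbered libraries deviated together at r = 0.353 (vehicle and LA), 0.112 (vehicle and TCM) and 0.106 (LA and TCM), but at -0.242 (CCM and TCM), -0.0813 (CCM and LA) and -0.0406 (vehicle and CCM), so the numbers were not taken to pair the samples. With the replicate block, 8 members were called with TCM over CCM, 1 with LA over vehicle, 9 in the difference of effects, 0 with CCM over vehicle and 9 with TCM over vehicle. Ctsk and Ctss were at or near the floor and were not tested.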
